A study of Mus musculus with 12 samples.

Results

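In the arcuate nucleus of female mice, 10 genes that mark astrocytes were compared between chow feeding and a high-fat diet (HFD), to ask whether the diet altered astrocyte identity or the gliosis programme in either genotype. The 10 genes were Gfap, Aqp4, S100b, Slc1a2, Slc1a3, Aldh1l1, Gja1, Glul, Serpina3n and Sox9, chosen by symbol. All 10 were present among the 16640 genes of the expression table, and all 10 passed the filter on low values that left 15801 genes for testing. Bulk RNA sequencing gave 12 libraries from 27-week-old females on a mixed CD-1;129P2 background, each from a microdissected hypothalamic block. All animals carried loxP-flanked Esr1 (Esr1 fl/fl, oestrogen receptor alpha). Control females had no Cre, and mutant females (Esr1 Nkx2.1-cre) also carried an Nkx2.1-cre driver, which removes the receptor wherever Nkx2-1 has been expressed and is not particular to neurons. On chow there were 3 control and 4 mutant libraries, and after 17 weeks of HFD there were 2 control and 3 mutant libraries. The labels do not say whether each library is a separate animal, so the tests measure the spread between these libraries.

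Astrocytes clear glutamate and potassium from synapses, line blood vessels with their endfeet and couple to one another through gap junctions. In gliosis they enlarge and make more of the intermediate filament protein encoded by Gfap, often together with acute-phase and complement genes. Astrocytes of the mediobasal hypothalamus lie next to neurons that sense nutrients, and gliosis there is a known companion of high-fat feeding in rodents.

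The measured quantity is an expression signal per gene that the authors normalised for gene length and depth. It lies near the scale of TPM, and its depth in reads is unknown, so no counting error can be given. Fold changes are on the log2(signal + 1) scale with standard errors (SE) and 95% intervals from limma, and a gene was called at a Benjamini-Hochberg adjusted p-value under 0.05 over all genes tested. In bulk tissue, fewer cells of a type and less RNA per cell cannot be told apart.

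Several libraries stood apart. The deleted gene, Esr1, had signals of 17.8, 7.29 and 19.8 in control chow, 6.05, 3.15, 1.93 and 1.65 in mutant chow, 15.3 and 22.4 in control HFD, and 10.7, 16.6 and 11.9 in the libraries labelled mutant HFD. The last group overlapped the control chow libraries, so its Esr1 level went against its label, and any diet effect in mutants below is an effect between libraries so labelled. Arcuate neuron markers were present throughout, with Pomc between 1009 and 4249 and Agrp between 65.9 and 787. Control HFD replicate 1 had the lowest Agrp, a Ttr signal (transthyretin, the choroid plexus marker) of 2112 against at most 19.2 elsewhere, and the lowest Cga (a pituitary hormone subunit, 82.0). Control chow replicate 2 had the highest Agrp and the highest Cga (4802). Mutant chow replicate 3 had 1768 genes at 0, the most of any library. Column totals ran from 922172 to 1254999.

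The diet did not separate the 10 astrocyte genes in either genotype. In controls 0 of 10 members were called (background 0% of genes tested), and in libraries labelled mutant 0 of 10 (background 0.019%). Averaged over genotypes, 0 of 10 were called (background 0%). At an unadjusted p under 0.05 the counts were also 0 of 10, where the background was 3.54% in controls, 5.37% in mutants and 5.29% averaged over genotypes. For 0 of 10 members were the HFD and chow libraries free of overlap, against 14.1% of genes tested in controls and 7.99% in mutants. The median log2 fold change of the members was 0.14 in controls, 0.01 in mutants and 0.06 averaged, beside −0.01, −0.02 and −0.02 over all genes tested.

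Gfap encodes the intermediate filament protein used as the standard mark of gliosis (GRCm38 chromosome 11, 102887336 to 102900912, minus strand). Its signal was 333, 234 and 388 in control chow and 381 and 276 in control HFD. In mutant chow it was 293, 453, 474 and 639, and in libraries labelled mutant HFD it was 236, 344 and 451. Both HFD groups lay within or across the range of their chow groups. The group means were 318 ± 78.4 (SD, n = 3) and 329 ± 74.4 (SD, n = 2) in controls, a log2 fold change of 0.06 ± 0.34 (SE, limma adjusted p = 0.999). The 95% interval of the fold ran from 0.623 to 1.74. In mutants the means were 465 ± 142 (SD, n = 4) on chow and 343 ± 107 (SD, n = 3) on HFD, a log2 difference of −0.43 ± 0.29 (SE, limma adjusted p = 0.924) with a fold between 0.482 and 1.14. That difference was −0.18 without mutant HFD replicate 1, −0.26 without mutant chow replicate 4 and −0.65 without mutant HFD replicate 3. Averaged over genotypes, the Gfap log2 difference was −0.19 ± 0.22 (SE, limma adjusted p = 0.929).

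**Figure D1:**
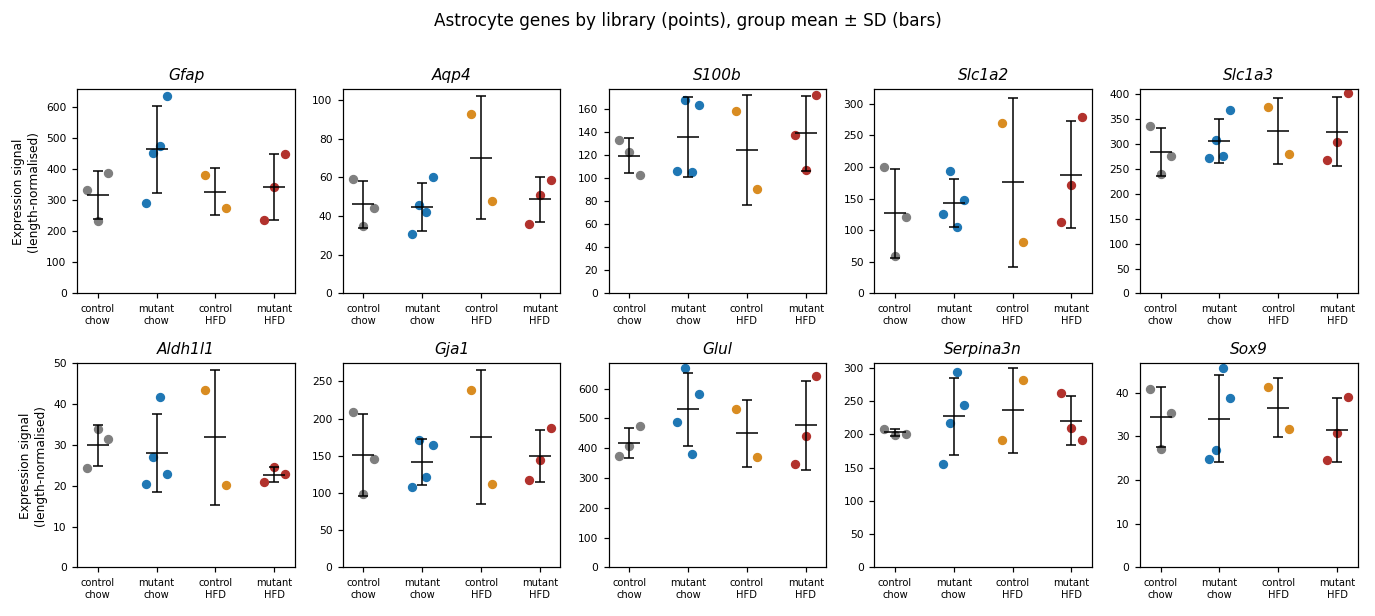
Expression signal (length-normalised, linear axis from 0) of the 10 astrocyte genes, with 1 panel per gene, 1 point per library and bars for the group mean and SD in control chow, mutant chow, control HFD and mutant HFD. For every gene the HFD points overlap the chow points of the same genotype, and the 2 control HFD points lie far apart for Aqp4, Slc1a2, Gja1 and Aldh1l1.

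Serpina3n, an acute-phase serine protease inhibitor that reactive astrocytes secrete (GRCm38 chromosome 12, 104406729 to 104414329, plus strand), stood at 209, 199 and 201 in control chow and at 191 and 281 in control HFD. In mutant chow it stood at 155, 216, 294 and 243, and in libraries labelled mutant HFD at 262, 209 and 191. The 3 control chow values lay close together, and the HFD pair lay on either side of them. The log2 fold change was 0.19 ± 0.26 in controls (SE, limma adjusted p = 0.998) and −0.02 ± 0.21 in mutants (SE, limma adjusted p = 0.996), and the fold in mutants lay between 0.716 and 1.36. Of its 31-base words, 21.6% also occur in transcripts of other genes, chiefly other Serpina3 genes, so read assignment within that cluster is uncertain. The 4 other Serpina3 genes in the table were at 5.10 or lower in every library (Serpina3g, Serpina3i, Serpina3c and Serpina3f), below 155, the lowest Serpina3n value.

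The glutamate transporters take up synaptic glutamate, and glutamine synthetase (Glul) converts it to glutamine. Slc1a2, which encodes GLT-1 (GRCm38 chromosome 2, 102658659 to 102790784, plus strand), was at 200, 59.2 and 121 in control chow, and at 270 and 80.7 in control HFD. It was at 126, 194, 105 and 148 in mutant chow, and at 113, 172 and 279 in libraries labelled mutant HFD. These were the widest spreads of any member, with a highest value 4.71 times the lowest and a pooled within-group SD of 0.73 on the log2 scale. The log2 fold change was 0.39 ± 0.55 in controls (SE, limma adjusted p = 0.998) and 0.33 ± 0.46 in mutants (SE, limma adjusted p = 0.958), and averaged over genotypes it was 0.36 ± 0.36 (SE, limma adjusted p = 0.911). The control estimate rested on 1 library, since it was −0.48 without control HFD replicate 1 and 1.25 without control HFD replicate 2. The interval for the fold in controls, 0.569 to 3.01, was the widest of any member, and a change anywhere within it is compatible with these values.

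Slc1a3, which encodes GLAST (GRCm38 chromosome 15, 8634124 to 8710764, minus strand), was the steadiest member, with a within-group SD of 0.25 on the log2 scale. It was at 336, 239 and 276 in control chow and at 374 and 279 in control HFD. It was at 273, 309, 275 and 369 in mutant chow, and at 269, 304 and 402 in libraries labelled mutant HFD. Its log2 fold change was 0.20 ± 0.23 in controls (SE, limma adjusted p = 0.998) and 0.07 ± 0.19 in mutants (SE, limma adjusted p = 0.973). For this gene the intervals were narrow enough to bound the fold at 0.815 to 1.62 in controls and 0.791 to 1.40 in mutants.

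Glul (GRCm38 chromosome 1, 153899944 to 153909723, plus strand) had the highest mean signal of the members, 476. It was at 375, 408 and 473 in control chow and at 530 and 371 in control HFD. It was at 488, 668, 381 and 584 in mutant chow, and at 348, 440 and 642 in libraries labelled mutant HFD. The groups overlapped in both genotypes, with a log2 fold change of 0.09 ± 0.29 in controls (SE, limma adjusted p = 0.998) and −0.17 ± 0.24 in mutants (SE, limma adjusted p = 0.959). Of its 31-base words, 20.4% occur in other transcripts, most of them in the pseudogene Glns-ps1.

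Aqp4 encodes the water channel of the endfeet, and Gja1 encodes connexin 43, the main astrocyte gap junction protein. Aqp4 was at 58.9, 35.1 and 43.9 in control chow and at 92.7 and 47.8 in control HFD. It was at 30.5, 45.5, 42.1 and 60.4 in mutant chow, and at 36.1, 50.9 and 58.8 in libraries labelled mutant HFD. Control HFD replicate 1 was the highest library of all, while replicate 2 lay within the chow range. A log2 fold change of 0.56 ± 0.35 in controls (SE, limma adjusted p = 0.998) was the largest of any member, and it was 0.09 without control HFD replicate 1 and 1.03 without control HFD replicate 2. In mutants it was 0.13 ± 0.29 (SE, limma adjusted p = 0.972).

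Gja1 (GRCm38 chromosome 10, 56377330 to 56402513, plus strand) was at 209, 98.2 and 146 in control chow, and at 239 and 112 in control HFD. It was at 109, 172, 121 and 165 in mutant chow, and at 117, 144 and 188 in libraries labelled mutant HFD. The same control HFD library was again the highest of the 12. Its log2 fold change was 0.18 ± 0.36 in controls (SE, limma adjusted p = 0.998), −0.36 without control HFD replicate 1 and 0.73 without control HFD replicate 2. In mutants it was 0.08 ± 0.31 (SE, limma adjusted p = 0.981).

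Aldh1l1 encodes a folate enzyme used as a pan-astrocyte label (GRCm38 chromosome 6, 90486427 to 90600203, plus strand), and was the least abundant member, with a mean of 27.8. Its values were 24.2, 34.0 and 31.5 in control chow and 43.5 and 20.2 in control HFD, so that the 2 control HFD libraries lay on either side of the chow range. They were 20.4, 27.1, 41.9 and 22.9 in mutant chow, and 20.8, 24.5 and 22.8 in libraries labelled mutant HFD. The log2 fold change was 0.01 ± 0.34 in controls (SE, limma adjusted p = 1.00), and −0.53 and 0.54 without control HFD replicate 1 or 2. In mutants it was −0.24 ± 0.29 (SE, limma adjusted p = 0.953).

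Sox9, a transcription factor that specifies and maintains astrocytes (GRCm38 chromosome 11, 112782224 to 112787760, plus strand), was at 41.0, 27.2 and 35.3 in control chow and at 41.3 and 31.8 in control HFD. It was at 24.8, 26.8, 45.7 and 38.9 in mutant chow, and at 24.6, 30.9 and 39.0 in libraries labelled mutant HFD. Its log2 fold change was 0.09 ± 0.30 in controls (SE, limma adjusted p = 0.998) and −0.09 ± 0.25 in mutants (SE, limma adjusted p = 0.975). The other SoxE genes, Sox8 and Sox10, which oligodendrocyte lineage cells also use, had mean signals of 22.7 and 25.8 beside 33.9 for Sox9.

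S100b encodes a calcium-binding protein of astrocytes and some oligodendrocytes (GRCm38 chromosome 10, 76253853 to 76261159, plus strand). It was at 134, 123 and 103 in control chow and at 159 and 91.0 in control HFD. It was at 106, 168, 105 and 164 in mutant chow, and at 138, 107 and 172 in libraries labelled mutant HFD. The log2 fold change was 0.01 ± 0.30 in controls (SE, limma adjusted p = 1.00) and 0.04 ± 0.25 in mutants (SE, limma adjusted p = 0.993). All 7 of the other S100 genes tested had a negative log2 fold change averaged over genotypes, beside 8459 of all 15801 genes. Among the 7, S100a4, S100a6 and S100a10 were lower on HFD at an unadjusted p under 0.05 (background 3.69%). Their log2 differences were −1.01 ± 0.42, −0.69 ± 0.23 and −0.41 ± 0.15 (SE, limma adjusted p = 0.823 or above), beside 0.03 for S100b. At that p 2 of 7 were lower in controls (background 2.10%) and 0 of 7 in mutants (background 3.94%). The summed signal of the 7 was 1603 in control chow replicate 2, against 922 and 929 in the other control chow libraries. S100a10 is also a marker of reactive astrocytes.

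**Figure D2:**
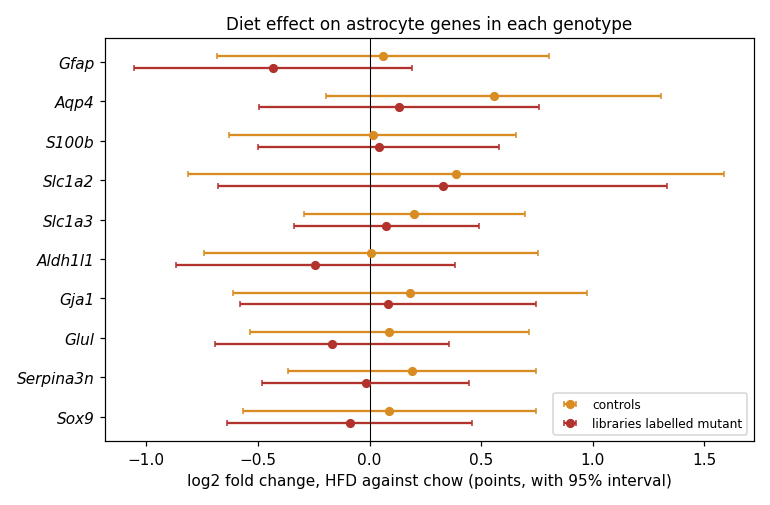
Log2 fold change of HFD against chow (x axis, points with 95% intervals from limma) for the 10 astrocyte genes in controls and in libraries labelled mutant. Every interval spans 0, with the narrowest for Slc1a3 and the widest for Slc1a2.

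The genotype by diet interaction, the difference between the diet effects, called 0 of 10 members (background 0%), and 0 of 10 reached an unadjusted p under 0.05 (background 3.44%). Its estimates were negative for 9 of 10 members, beside 8331 of all 15801 genes tested, with a median of −0.19 beside −0.03. The largest was that of Gfap, at −0.49 ± 0.45 (SE, limma adjusted p = 0.999). Most members varied together between libraries, so their signs are not independent. On chow, mutant against control called 0 of 10 members (background 0.019%) and had 0 of 10 at an unadjusted p under 0.05 (background 4.34%). Gfap had the largest estimate there, with means of 465 in mutants and 318 in controls and a log2 fold change of 0.52 ± 0.29 (SE, limma adjusted p = 0.982), and the groups overlapped. On HFD, mutant against control called 0 of 10 members (background 0.00633%) and had 0 of 10 at an unadjusted p under 0.05 (background 2.21%). The groups were free of overlap for 0 of 10 members on chow and on HFD, where the background was 4.51% and 15.7%.

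Much of the spread of the members lay between libraries of the same group. With group means removed, 39 of the 45 pairs of members had a positive Pearson's r over 12 libraries, with a median of 0.58. The points share a library and a dissection, so this is a description only. Serpina3n was the exception, with a median r of −0.22 with the other members and 3 of 9 pairs positive. Control HFD replicate 1 had 9 of 10 members above their own median over the libraries, and 6 of 10 among its top 2. Control HFD replicate 2 had 2 of 10 above the median, as had mutant HFD replicate 1, while mutant HFD replicate 3 had 8 of 10. In the other groups the number ran from 1 of 10 in control chow replicate 2 and mutant chow replicate 1 to 9 of 10 in mutant chow replicate 4. The summed signal of the arcuate neuron list was lowest in control HFD replicate 1 (4237) and highest in control chow replicate 2 (14458), and its part in the member values was not tested beyond its use as a covariate.

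**Figure D3:**
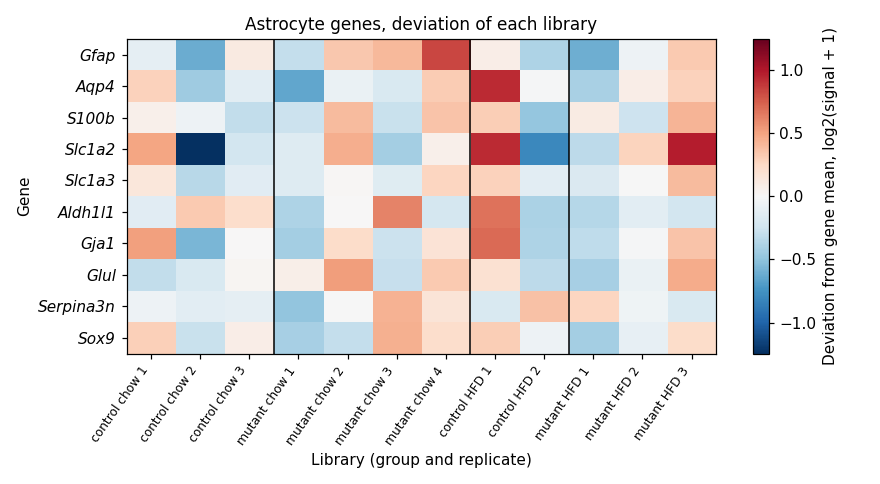
Deviation of each library from the gene's mean over 12 libraries, on the log2(signal + 1) scale (colour, red above and blue below), with the 10 astrocyte genes in rows and the libraries in columns, and vertical lines between groups. Red and blue columns occur within a single group, as in control HFD replicates 1 and 2, and the Serpina3n row runs against most others.

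Outside the members, the 5 genes of 12136 whose log2 profile was most like the mean of the scaled members over 12 libraries were Clic4 (r = 0.95), Slc6a9 (r = 0.94), Fzd2 (r = 0.94), Mid1ip1 (r = 0.92) and Trp53inp2 (r = 0.91). Slc6a9 encodes the glycine transporter GlyT1, which astrocytes use. It ran from 30.5 in mutant chow replicate 1 to 84.8 in mutant HFD replicate 3.

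RefSeq promoter windows on GRCm38.p6 were used for 8 of the 10 members. The 250 bases before the start were searched on both strands for 4 motifs of factors with a known role in astrocyte or general transcription. The letters TTCNNNGAA, bound by STAT factors, occurred in 1 of the 8 members and in 7.02% of all promoters. The half-site of nuclear factor I, TTGGCA, occurred in 1 of 8 members and 12.3% of all promoters. A TATA box, spelled TATAAA, occurred in 1 of 8 members and 12.4% of all promoters. The SOX letters ACAAAG occurred in 0 of 8 members and 16.5% of all promoters. None of the matches overlap. The 2 windows with a match are shown because they hold all of the matches, which are in capitals. In Slc1a3 (chr15:8710808-8711057, minus strand) these are a TATA box on the opposite strand, beginning 161 bases before the start, and a STAT match, beginning 96 bases before it. In S100b (chr10:76253586-76253835, plus strand) there is a half-site, beginning 19 bases before the start.
Slc1a3: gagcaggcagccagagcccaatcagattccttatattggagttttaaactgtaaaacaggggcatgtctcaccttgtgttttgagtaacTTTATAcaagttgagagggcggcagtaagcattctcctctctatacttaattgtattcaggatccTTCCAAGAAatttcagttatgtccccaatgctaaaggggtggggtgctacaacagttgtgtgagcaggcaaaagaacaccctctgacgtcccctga
S100b: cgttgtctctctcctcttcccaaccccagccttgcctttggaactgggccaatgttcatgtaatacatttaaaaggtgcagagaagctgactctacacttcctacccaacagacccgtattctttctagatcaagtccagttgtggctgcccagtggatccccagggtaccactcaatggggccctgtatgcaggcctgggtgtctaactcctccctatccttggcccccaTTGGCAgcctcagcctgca

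Further lists of astrocyte function had averaged medians between −0.18 and 0.17, beside −0.02 over all genes tested. Of 28 other astrocyte identity genes, 0 had an unadjusted p under 0.05 averaged over genotypes (background 5.29%), and the median log2 fold change was 0.12. For 13 genes of glutamate and potassium handling the count was 0 and the median 0.17, and for 11 endfoot and gap junction genes 0 and 0.05. Of 12 glial transcription factors 1 was under that p, namely Lhx2, a developmental factor of tanycytes. Lhx2 was lower on HFD at a log2 difference of −0.46 ± 0.17 (SE, limma adjusted p = 0.886), and the list's median was −0.18. Within the solute carrier family 1, Slc1a4 and Slc1a1 had mean signals of 57.6 and 34.2, against 309 for Slc1a3 and 156 for Slc1a2. Gjb6, the other astrocyte connexin, had a mean of 52.4 against 152 for Gja1. The other aquaporins had lower means than Aqp4, the highest being Aqp11 at 5.89.

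Averaged over genotypes, estimates for the listed genes of the reactive astrocyte programme were lower on HFD, not higher. None passed the adjusted threshold. Of the 36 genes listed, 34 were in the table and 32 passed the filter. All 32 had a negative log2 fold change averaged over genotypes, beside 8459 of all 15801 genes, with a median of −0.44 beside −0.02. In controls 25 of 32 were negative, beside 8017 of all genes tested, and 7 were positive, up to 1.04. In libraries labelled mutant 30 of 32 were negative, beside 8391. Serpina3n, which reactive astrocytes also make, was counted as a member and is not in this list. Its log2 fold change was 0.19 in controls and −0.02 in libraries labelled mutant. At an unadjusted p under 0.05, 9 of 32 were lower (background 3.69%) and 0 were higher, with a smallest adjusted p = 0.428 by limma. In controls 2 of 32 were lower at that p (background 2.10%) with a median of −0.38, and in libraries labelled mutant 8 of 32 (background 3.94%) with a median of −0.50. Single libraries moved these values. The control median was −0.16 without control HFD replicate 1 and −0.53 without control HFD replicate 2. It was −0.12 without control chow replicate 3 and −0.22 without control chow replicate 2. The control count was 4 of 31 without control chow replicate 1, where the background rose to 4.68%. It was 2 of 32 without control chow replicate 3 (background 1.89%). The mutant count was 4 of 32 without mutant HFD replicate 1 (background 3.26%) and 5 of 31 without mutant chow replicate 3 (background 3.16%). The averaged count was 6 of 32 without mutant HFD replicate 2 (background 2.96%) and 12 of 31 without control chow replicate 1 (background 5.76%). Without control HFD replicate 1 the averaged median was −0.38. With the neuron list as a covariate the control median was −0.058. The mutant count was then 5 of 32 (background 3.17%) and the averaged count 3 of 32 (background 2.601%). The averaged median was −0.31 without both control HFD replicate 1 and mutant chow replicate 3.

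**Figure D4:**
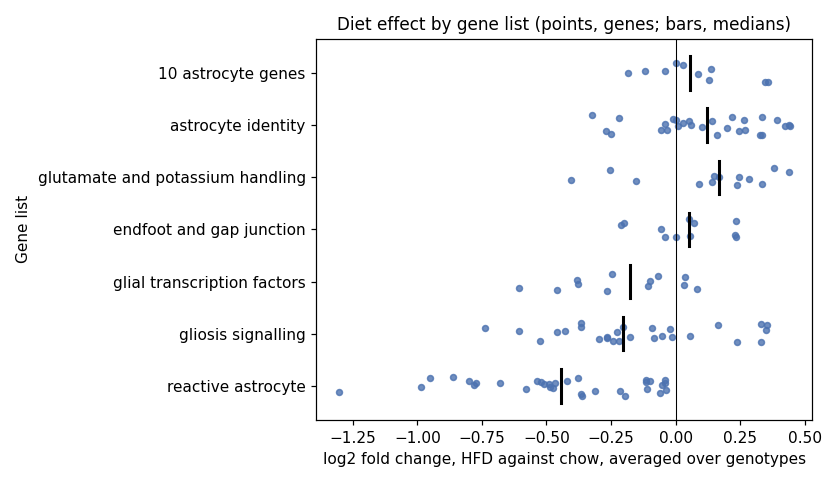
Log2 fold change of HFD against chow averaged over genotypes (x axis) for each tested gene (points) of 7 gene lists (rows), with a bar at the list's median. The 10 astrocyte genes and the identity list have medians of 0.06 and 0.12, and the 32 reactive astrocyte genes all lie below 0 with a median of −0.44.

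C4b, which encodes complement component 4 and is induced in astrocytes and microglia in injury and ageing, led the list. Its signal was 83.0, 174 and 84.5 in control chow and 60.03 and 60.08 in control HFD. It was 113, 140, 118 and 141 in mutant chow, and 66.4, 61.3 and 51.9 in libraries labelled mutant HFD. All 5 HFD libraries were below all 7 chow libraries, as were those of Osmr in this list and 0.253% of all genes tested. The C4b mean on HFD was 52.8% of chow in controls, where control chow replicate 2 stood far above the other chow libraries, and 46.8% in mutants. The log2 difference was −0.95 ± 0.18 averaged (SE, limma unadjusted p = 0.000186, adjusted p = 0.428), −0.82 ± 0.28 in controls (SE, limma adjusted p = 0.998) and −1.08 ± 0.23 in mutants (SE, limma adjusted p = 0.444). The control difference was −0.47 without control chow replicate 2. In mutants the difference passed the threshold under 2 of 25 alternatives. These gave a limma adjusted p = 0.0414 without control chow replicate 2 and 0.0420 with array weights. Control chow replicate 2 enters the mutant comparison only through the shared estimate of spread, and the difference stayed at −1.08 without it. Of the 31-base words of C4b, 48.3% also occur in C4a, which was not analysed here, so the values may hold reads of both.

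Osmr, the oncostatin M receptor subunit, was at 1.65, 2.56 and 3.56 in control chow, 0.855 and 0.833 in control HFD, 2.03, 2.03, 8.64 and 3.29 in mutant chow, and 1.03, 0.848 and 1.61 in libraries labelled mutant HFD. The separation was complete but at low levels, with a log2 difference of −0.99 ± 0.33 averaged (SE, limma adjusted p = 0.823). H2-D1, a class I histocompatibility gene, was at 174, 351 and 220 in control chow and 123 and 238 in control HFD, which overlap. It was at 270, 268, 496 and 257 in mutant chow, and at 170, 168 and 162 in libraries labelled mutant HFD, all below chow. Its averaged log2 difference was −0.68 ± 0.23 (SE, limma adjusted p = 0.823), and 26.9% of its 31-base words occur in related genes such as H2-K1.

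Lcn2, the secreted iron carrier lipocalin 2, was at 0.926, 1.3 and 1.57 in control chow, 0.406 and 0 in control HFD, 12.6, 4.05, 4.41 and 2.04 in mutant chow, and 0, 0.532 and 2.82 in libraries labelled mutant HFD. Its averaged log2 difference was −1.30 ± 0.42 (SE, limma adjusted p = 0.823), from signals near the filter. Cp, the ferroxidase ceruloplasmin, was at 6.39, 5.65 and 10 in control chow and 5.94 and 7.65 in control HFD, where the groups overlap. It was at 19.7, 13, 26.9 and 8.13 in mutant chow, and at 4.71, 5.23 and 4.84 in libraries labelled mutant HFD, a log2 difference of −1.48 ± 0.36 in mutants (SE, limma adjusted p = 0.564) and an interaction of −1.40 ± 0.56 (SE, limma adjusted p = 0.999). Tm4sf1, a membrane protein of endothelium and reactive astrocytes, had means of 51.9 in control chow and 28.9 in control HFD, a log2 difference of −0.77 ± 0.32 (SE, limma adjusted p = 0.998).

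Vim, the filament partner of Gfap that tanycytes also express strongly, was named after its values were seen. It was at 203, 301 and 201 in control chow, 159 and 190 in control HFD, 138, 168, 323 and 203 in mutant chow, and 127, 154 and 119 in libraries labelled mutant HFD. The averaged log2 difference was −0.49 ± 0.20 (SE, limma adjusted p = 0.886), beside −0.19 ± 0.22 for Gfap.

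**Figure D5:**
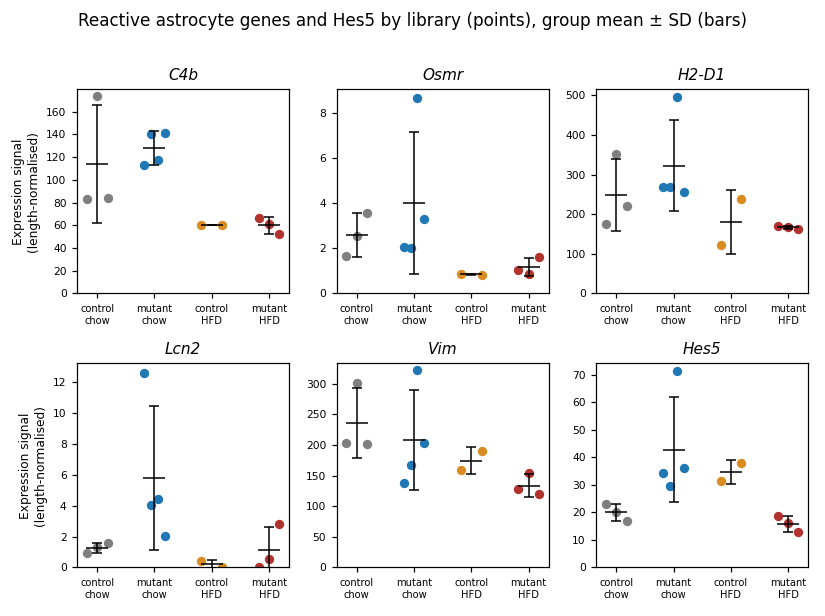
Expression signal (length-normalised, linear axis from 0) of C4b, Osmr, H2-D1, Lcn2, Vim and Hes5, with 1 point per library and bars for the group mean and SD. C4b and Osmr are lower in all HFD libraries than in all chow libraries, and Hes5 is higher on HFD in controls and lower in libraries labelled mutant.

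Among 27 gliosis signalling genes that passed the filter (of 29 listed), the averaged median was −0.20. In mutants 5 of 27 were lower at an unadjusted p under 0.05 (background 3.94%), with a median of −0.38, and in controls 0 of 27 with a median of 0.05. Hes5, a Notch target of glial progenitors, was at 23.1, 20.1 and 16.9 in control chow and 31.5 and 37.8 in control HFD, but at 34.2, 29.6, 71.2 and 36.1 in mutant chow and 18.8, 16.1 and 12.9 in libraries labelled mutant HFD. This was a log2 fold change of 0.77 ± 0.33 in controls (SE, limma adjusted p = 0.998) and −1.30 ± 0.28 in mutants (SE, limma adjusted p = 0.444). Interaction estimates of −1.37 ± 0.53 for Tgfbr2, a receptor of transforming growth factor beta, and −0.90 ± 0.38 for Clcn2, a glial chloride channel, also failed the correction (SE, limma adjusted p = 0.999 for each).

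Some lists of other cell types had estimates in the same direction as the reactive astrocyte genes, and others did not. The microglia list, whose cells also express complement and class I genes, had a summed signal of 747 to 829 in mutant chow against 415 to 627 in control chow, 452 to 574 in control HFD and 460 to 557 in libraries labelled mutant HFD. On chow 7 of its 12 genes were higher in mutants at an unadjusted p under 0.05 (background 2.59%), as were 4 of 32 reactive astrocyte genes. For HFD against chow, 7 of the 12 microglia genes were lower in mutants at that p (background 3.94%) and 0 of 12 in controls (background 2.10%), and by direction 12 of 12 were negative in mutants and 6 of 12 in controls. The tanycyte list, from the ventricle-lining glia that express Vim, shares Lhx2 with the glial transcription factors. It had a median of −0.35 averaged over genotypes, with 10 of 10 genes negative, beside 8459 of all 15801, and 3 of 10 lower at that p (background 3.69%). Its summed signal was 441 to 751 on chow and 357 to 665 on HFD. Negative averaged estimates were also held by 11 of 12 microglia genes (median −0.26), 7 of 7 endothelial genes (median −0.33) and 6 of 6 pituitary genes. Of the 12 microglia genes, 4 were lower averaged over genotypes at that p (background 3.69%). Positive averaged estimates were held by 8 of 8 neuron genes and 5 of 5 oligodendrocyte precursor genes, beside 7342 of all 15801. Oligodendrocyte genes had estimates of opposite sign in the genotypes, with an interaction median of −0.98. In controls 8 of 8 were positive (median 0.35), beside 7748 of all 15801 genes. In mutants 8 of 8 were negative (median −0.65), beside 8391. An unadjusted p under 0.05 was reached by 0 of 8 in either genotype (background 3.54% and 5.37%). Their summed signal ran from 1286 to 3838 within control chow and from 1843 to 5850 within mutant chow. Blood genes had medians of 0.78 in controls and −0.12 in mutants, and pituitary genes −1.72 and −0.19, with the pituitary sum between 121 and 6030 over the libraries. Averaged medians of the other lists were 0.20 for neurons, −0.34 for arcuate neurons, 0.01 for oligodendrocyte precursors, −0.01 for ependyma, −0.34 for mural cells and −0.07 for choroid and meninges. The defining microglia and tanycyte markers were above 0 in every group, and the part of these cell types in the reactive astrocyte values was not tested.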

How the data were processed

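Total RNA from microdissected arcuate nucleus was sequenced by the authors in 12 libraries. Per the study's methods, kallisto in gene mode assigned reads to mm10 transcripts and sleuth tested genes, with versions not given in the sources used here. The deposited values are an abundance signal normalised by the authors for length and depth, not counts, with the exact scaling not stated. Kallisto splits reads of shared sequence between genes, so related genes can exchange signal. The share of 31-base words occurring in other genes was computed from GENCODE M21 transcripts, which also gave symbols for 16633 of 16640 genes and positions on GRCm38.

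Values were transformed as log2(value + 1), and genes with a value of at least 1 in at least 2 libraries were kept. All 12 libraries entered 1 limma 3.58.1 fit in R 4.3.3 with a mean for each group, a mean-variance trend, two-sided tests and Benjamini-Hochberg adjustment over 15801 genes, for 6 contrasts. The script was tested on simulated data. The members and the 25 gene lists were chosen with earlier results of these data known. Named genes were the 10 members, Esr1, and from each astrocyte list up to 4 genes of smallest unadjusted p under 0.05 for the averaged diet effect and up to 2 for each other diet comparison. Group values are means ± SD. Replicate numbers follow deposition order and match the running numbers in the deposited column names. Ptx3, Slc10a6, Il6, Tnf, Aqp8, 6 Serpina3 genes, S100a8, S100a9 and Gh were not analysed here. One result that the rule for named genes selects is not reported here.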

Additional observations from a re-analysis of the deposited data

Results flagged for a closer look

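The Hes5 diet effect took opposite directions in the genotypes, with both control HFD libraries above all control chow libraries and all 3 libraries labelled mutant HFD below all mutant chow libraries. The difference between the effects was −2.07 ± 0.43 as a log2 value (SE, limma unadjusted p = 0.000415, adjusted p = 0.999), so it failed the correction over all genes. It ranged from −2.29 to −1.80 over the alternatives, and 25.7% of the 31-base words of Hes5 occur in the overlapping gene Gm20421.

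Single libraries far from their group were sought on the untransformed signal among the 4 mutant chow libraries for 23 genes. For normally distributed values chance marks about 1 group in 20. That rate is only approximate here, since normality was not tested and some of the genes were named by their p-values in these data. The search found 2, both in mutant chow replicate 3. H2-D1 was 496 there and Hes5 was 71.2. None of the 10 astrocyte genes had such a library.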

How the results depend on the processing

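The count of members called stayed at 0 in all 6 comparisons under every alternative run. No member passed the adjusted threshold, but the sign of many member estimates depended on the setting, and the cause was not tested. Log2 values follow. With the neuron list as covariate they were −0.17 for S100b, −0.26 for Slc1a2, −0.10 for Aldh1l1, −0.18 for Gja1 and −0.046 for Glul in controls, −0.0051 for Aqp4, −0.069 for S100b, −0.069 for Slc1a2, −0.14 for Gja1 and 0.12 for Serpina3n in mutants, and −0.16 for Slc1a2 averaged. With the oligodendrocyte list they were −0.099 for Gfap, −0.10 for S100b, −0.094 for Aldh1l1 and −0.034 for Glul in controls, and 0.032 for Glul and 0.023 for Serpina3n in mutants. With array weights they were −0.034 for Gfap in controls, and −0.19 for S100b, −0.021 for Slc1a3, −0.060 for Gja1 and 0.064 for Serpina3n in mutants. With the arcuate neuron list, added after the data were seen, they were −0.0058 for Gfap, −0.097 for S100b, −0.12 for Slc1a2, −0.082 for Aldh1l1, −0.083 for Gja1 and −0.068 for Glul in controls, −0.027 for S100b, −0.081 for Gja1 and 0.11 for Serpina3n in mutants, and −0.053 for Slc1a2 averaged. Leaving out control HFD replicate 1 and mutant chow replicate 3 together, also added, gave −0.17 for the median of the members, −0.17 for Gfap, −0.38 for S100b, −0.48 for Slc1a2, −0.0095 for Slc1a3, −0.53 for Aldh1l1, −0.36 for Gja1, −0.17 for Glul and −0.094 for Sox9 in controls, −0.069 for S100b, 0.12 for Serpina3n and 0.063 for Sox9 in mutants, and −0.14 for Slc1a2 averaged.

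Leaving out 1 library at a time, where the lone control HFD library is assumed to vary like the other groups, gave these ranges in controls: −0.17 to 0.41 for the median, −0.17 to 0.29 for Gfap, −0.38 to 0.41 for S100b, −0.48 to 1.25 for Slc1a2, −0.0095 to 0.41 for Slc1a3, −0.53 to 0.54 for Aldh1l1, −0.36 to 0.73 for Gja1, −0.17 to 0.35 for Glul, −0.086 to 0.47 for Serpina3n and −0.094 to 0.27 for Sox9. In mutants they were −0.65 to −0.18 for Gfap, −0.37 to −0.038 for Aldh1l1, −0.032 to 0.33 for Aqp4, −0.13 to 0.21 for S100b, −0.0043 to 0.65 for Slc1a2, −0.089 to 0.20 for Slc1a3, −0.094 to 0.24 for Gja1, −0.41 to 0.035 for Glul, −0.19 to 0.12 for Serpina3n and −0.25 to 0.071 for Sox9. Averaged, Slc1a2 ran from −0.075 to 0.79. In all, 954 of the 1034 alternative values of 42 single-gene results kept direction and side of the threshold. Of the rest, 78 reversed direction, all of them in member results, and 2 passed the threshold. The named genes outside the members never changed sign, so the total understates how often member estimates did. DESeq2 was not run because the values are not counts. The deposited column names carry a running number within each group, and a fit with it as a replicate block was added after the data were seen. Whether the numbers pair the libraries could not be decided, because deviations from the mean of the 2 control HFD libraries mirror each other by construction. Of 15 same-numbered pairs, 3 had deviations from their group means that correlated with an r over 0.1 (range −0.18 to 0.31). The median r was 0.0037 for same-numbered pairs and 0.0045 for other pairs, and 6 of 12 libraries were closest to one of their own number. With the block, 0 members were called in each comparison, with member medians of 0.23 in controls and 0.085 in mutants. S100b was −0.0028 in controls and Serpina3n 0.028 in mutants. At an unadjusted p under 0.05, 7 of 32 reactive astrocyte genes were lower averaged over genotypes (background 3.34%). The count was 1 of 32 in controls (background 2.23%) and 8 of 32 in mutants (background 4.29%). With 2 control HFD libraries, and depth unknown, the intervals above give the fold changes compatible with these values, not a limit of detection.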
